A study of Homo sapiens with 9 samples.

Results

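Long intergenic RNAs (lincRNAs) were followed in multicellular tumor spheroids (MTSs) of PC-3, a human prostate cancer cell line. The members were the genes with a symbol of LINC followed by digits that reached an expected count of at least 10 in all 3 libraries of at least 1 group. Of 1203 such symbols among 27111 genes in the files, 333 were members, and 235 of these reached the limit in all 3 groups. The members were thus selected on their counts in the libraries that are compared here, so a gene present in 1 group alone had to differ in order to enter. There were 29 members that passed through Empty alone, 13 through NF-YAl alone and 12 through NF-YAs alone. Just outside the limit were LINC00483, LINC01448 and LINC00598, whose lowest counts in their best group were 9.36, 9.53 and 9.85, and just inside were LINC00922, LINC01119 and LINC01144 at the limit itself.

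The 3 groups, with 3 libraries each, were stable PC-3 lines transduced with lentiviral particles that carry an empty vector (Empty), the long isoform of NF-YA (NF-YAl) or its short isoform (NF-YAs). All lines were selected with puromycin and grown as MTSs, and each library came from MTSs pooled from 1 line and 1 experiment. The transgenes are murine, and reads were counted on human transcripts alone, so transgene and endogenous NFYA reads cannot be told apart. With 1 transduced line per construct, a difference between lines that arose in selection cannot be told apart from an effect of the construct.

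NF-Y, built from the subunits NF-YA, NF-YB and NF-YC, binds the CCAAT box, a common promoter element, and NF-YA is the subunit that gives sequence specificity. NF-YAl and NF-YAs arise by alternative splicing within the activation domain. LincRNAs are transcribed from their own promoters between coding genes, are usually spliced, and are often limited to few cell types and present at low levels. Some act on the gene next to them, some act on RNA or protein elsewhere, and some have turned out to encode small proteins.

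Totals per library were 18076979 to 27163976 expected counts, and members took 0.504 to 0.857% of them. NFYA was higher in both transduced lines, with 91.8 ± 4.24 CPM (counts scaled by TMM library size to a fixed total per library; mean ± SD, n = 3 here and below) for Empty, 341 ± 49.3 with the NF-YAl construct and 261 ± 5.71 with NF-YAs. Epithelial KRT8, KRT18 and KRT19 were present, the prostate secretory genes KLK3 and KLK2 were at or near 0 TPM, and the lymphocyte gene CD3E reached at most 0.06 TPM. EPCAM, an epithelial gene, was at 0.713 TPM in Empty and at 4.21 TPM in NF-YAl. CD68, a macrophage marker that cell lines also express, was at 14.8 to 42 TPM. The 3 libraries of a group were separate experiments by the study's methods.

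Annotation placed 305 of the 333 members on GRCh37, and 257 of these overlapped no coding gene. The others lay on the opposite strand of a coding gene in 32 cases, on the same strand in 19 and both in 3. For the 257, the median distance to the nearest coding gene was 28172 bp, with 73 within 10 kb and 66 beyond 100 kb. A further property was that 21 members started within 1000 bp of a coding gene that runs the other way. The symbols are those of the files, and 43 have since been renamed and 15 are now listed as protein coding by RefSeq. Whether counting used strand is not given in the sources used here, so members that overlap another gene may carry its reads.

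Most members were present at low levels. On the TPM scale, which is corrected for length, the median member was at 1.7 TPM over the 9 libraries, 104 members were below 1 TPM and 44 above 10 TPM, while the median tested gene with a coding transcript was at 10.7 TPM. The 10 highest members were LINC01873, LINC00506, LINC00504, LINC02043, LINC00649, LINC02108, LINC00261, LINC00493, LINC01468 and LINC00458, and they took 57.3 to 64.9% of the TPM of all members in a library.

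At the head of this order stood transcripts made largely of repeated sequence. LINC01873 was at 414 ± 93.4 TPM (mean ± SD, n = 9), LINC00506 at 409.5 ± 121, LINC00504 at 321 ± 114, LINC02043 at 239 ± 57.2 and LINC02108 at 111 ± 26.4. The share of a transcript's 31-base words that occur 10 or more times in GRCh37 was 63.4% for LINC01873, 51.7% for LINC00506, 60% for LINC00504, 52.1% for LINC02043 and 49.9% for LINC02108. Over the 305 placed members the median share was 2.73%, and 96 members had none. A share of at least 45%, a limit set after the values were seen, was found in 8 members, which took 49.9 to 58.2% of the members' counts in a library. RSEM shares reads that align to several transcripts among them, but copies of a repeat that lie outside the transcripts have no target, so the levels of these 8 are uncertain.

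**Figure D1:**
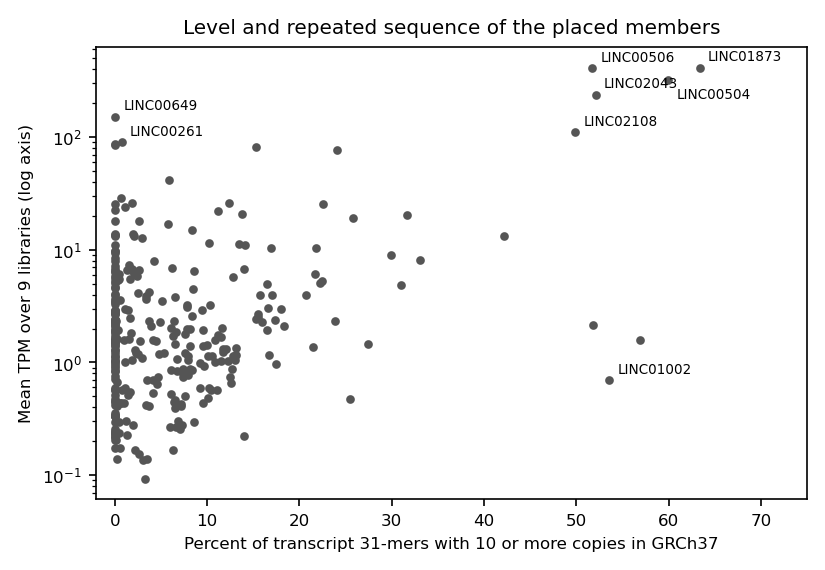
Mean TPM over the 9 libraries (log axis) against the percent of transcript 31-base words with 10 or more copies in GRCh37, 1 point per placed member. The 5 points at the upper right, LINC01873, LINC00506, LINC00504, LINC02043 and LINC02108, combine the high levels with shares of 49.9 to 63.4%.

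None of these 5 was called in any comparison. LINC00504 stood at 1581, 866 and 1073 CPM for Empty, at 1647, 1095 and 1081 across NF-YAl and at 1087, 912 and 843 across NF-YAs. The ranges of all 3 groups overlapped, and the adjusted p was 0.726 for NF-YAl and 0.295 for NF-YAs against Empty (edgeR quasi-likelihood test with Benjamini-Hochberg adjustment over 17108 genes, as for every adjusted p below). For LINC01873, LINC00506, LINC02043 and LINC02108 the adjusted p values were 0.366 to 0.987 over the 3 comparisons.

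Of the other 5 in the highest 10, only LINC01468 was called in a comparison. LINC00261, which lies 2356 bp from FOXA2, a transcription factor gene of endoderm and prostate, and is known for its link to it, was at 90.5 ± 23.7 TPM. Its CPM were 320, 365 and 310 for Empty, 270, 430 and 351 across NF-YAl and 342, 352 and 319 across NF-YAs, and the groups overlapped. The log2FC was 0.08 ± 0.14 (± SE here and below) in NF-YAl and 0.03 ± 0.14 in NF-YAs. FOXA2 itself had a log2FC of -0.41 in NF-YAl, 0.52 in NF-YAs and -0.94 between the lines, with adjusted p of 0.155, 0.0673 and 0.00766.

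LINC01468, now named LNCAROD, is an RNA known as an activator of DKK1, which encodes a secreted WNT inhibitor. It was at 34.4, 22.5 and 30.2 CPM for Empty, at 67.7, 70.1 and 88.6 across NF-YAl and at 48.8, 53.4 and 50.5 across NF-YAs. No library of a transduced line fell into the range of Empty. The rise in NF-YAl was 1.38 ± 0.15 log2 units (adjusted p 3.78e-05), and in NF-YAs the difference was 0.81 ± 0.15 (adjusted p 0.00131), which is under the fold limit. DKK1, chosen after the values of LINC01468 were seen, had a log2FC of 1.02 in NF-YAl and 0.14 in NF-YAs.

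Calls needed an adjusted p below 0.01 with a log2FC beyond 1 in either direction, and 332 of the 333 members entered the test. In NF-YAl against Empty, 11 members rose and 17 fell, or 3.31 and 5.12%. Over all 17108 tested genes, 4.76% rose and 3.5% fell. In NF-YAs against Empty, 15 members rose and 26 fell, or 4.52 and 7.83%, beside 5.44 and 3.9% of all genes. Between the lines, 5 members were higher in NF-YAl and 13 lower, or 1.51 and 3.92%, beside 1.74 and 2.86% of all genes. Both comparisons with Empty share its 3 libraries, and in RNA from whole MTSs fewer cells with an RNA and less RNA per cell cannot be told apart. The members' selection may have shaped these shares, which was not tested. Over the 16664 tested genes that pass the same count rule, 4.8% rose and 3.59% fell in NF-YAl. In NF-YAs 5.44% of them rose and 3.99% fell. Among the 235 members that passed the count limit in all groups, 5 rose and 10 fell in NF-YAl and 5 rose and 16 fell in NF-YAs. All 28 and 41 calls against Empty, and all 18 between the lines, had libraries that did not overlap. So had 94, 156 and 106 of the 332 tested members, in the same order. The share of all tested genes without overlap was not computed, so these counts cannot be read as a trait of the members. Absence of overlap was also a criterion for naming called members, so below it describes them and adds no support to a call.

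The median log2FC in NF-YAs was -0.21 over the 235 members that passed the count limit in all groups, of which 156 were below 0, beside -0.00 over all tested genes. Over all 332 tested members, some of which entered through 1 group alone, it was -0.27, with 219 below 0. Both are descriptions of the selected members. In NF-YAl the median was 0.01, as it was for all genes, and 164 members were below 0, or 49.4% beside 48.9% of all tested genes. Other genes whose transcripts are all non-coding, 2165 in number, had a median of -0.17 in NF-YAs and 0.04 in NF-YAl. In NF-YAs 61% of these other non-coding genes were below 0, beside 66% of the tested members and 50.3% of all tested genes. The members' median in NF-YAs was -0.27 with both other scalings, DESeq2 size factors and relative log expression. Libraries of NF-YAs were shallower than those of Empty, at 18076979 to 21533481 against 25033571 to 27163976 counts, and the part of depth in the median was not tested.

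**Figure D2:**
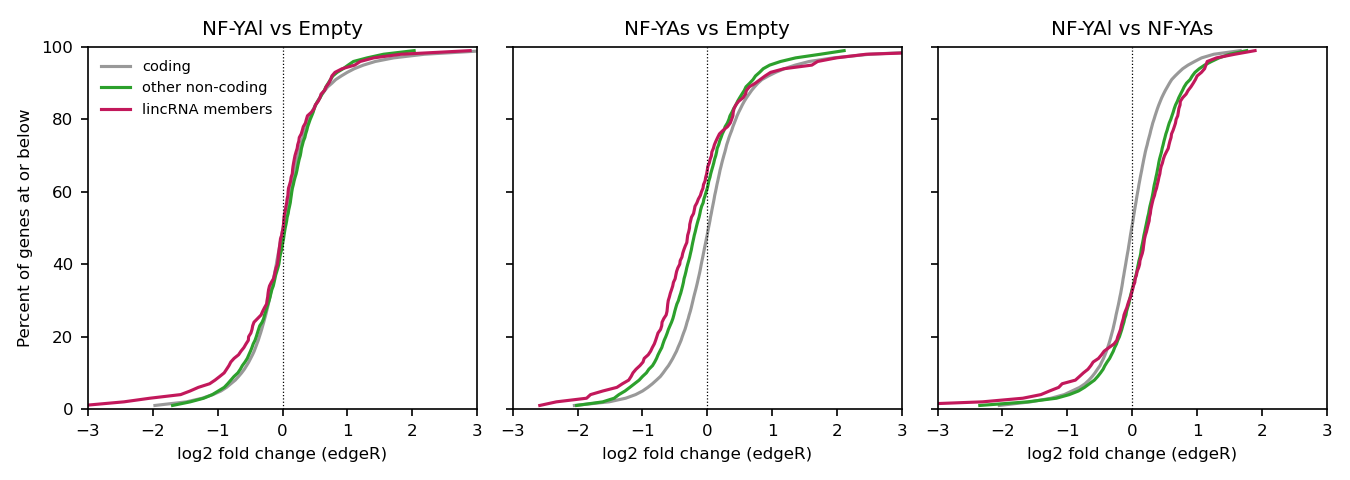
Cumulative percent of genes by log2 fold change in each comparison, for lincRNA members (332), other non-coding genes (2165) and genes with a coding transcript (14613). The members' curve lies to the left of the coding curve in NF-YAs vs Empty, where its median is -0.27, and close to it in NF-YAl vs Empty, where its median is 0.01.

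Start sites of 4 members that fell, and of LINC00472, which rose in NF-YAl, are shown, since the CCAAT box is what NF-Y binds. The windows run from 250 bases before to 50 after the start, from RefSeq on GRCh38.p14, 5′ to 3′ along the gene, with CCAAT or its reverse complement ATTGG in capitals.
LINC01234 (chr12:113773634-113773933, minus strand): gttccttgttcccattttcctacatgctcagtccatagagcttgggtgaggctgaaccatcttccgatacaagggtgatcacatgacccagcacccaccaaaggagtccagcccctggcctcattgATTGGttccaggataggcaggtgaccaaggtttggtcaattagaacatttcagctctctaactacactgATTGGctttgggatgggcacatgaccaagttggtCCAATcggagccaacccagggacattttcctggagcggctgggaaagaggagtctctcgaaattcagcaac
LINC01133 (chr1:159960974-159961273, plus strand): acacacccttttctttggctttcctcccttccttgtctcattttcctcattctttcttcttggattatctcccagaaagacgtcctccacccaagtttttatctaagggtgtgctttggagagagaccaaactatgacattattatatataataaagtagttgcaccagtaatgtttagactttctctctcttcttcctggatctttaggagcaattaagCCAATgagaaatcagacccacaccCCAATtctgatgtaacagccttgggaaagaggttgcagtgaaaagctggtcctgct
LINC01444 (chr18:14970419-14970718, minus strand): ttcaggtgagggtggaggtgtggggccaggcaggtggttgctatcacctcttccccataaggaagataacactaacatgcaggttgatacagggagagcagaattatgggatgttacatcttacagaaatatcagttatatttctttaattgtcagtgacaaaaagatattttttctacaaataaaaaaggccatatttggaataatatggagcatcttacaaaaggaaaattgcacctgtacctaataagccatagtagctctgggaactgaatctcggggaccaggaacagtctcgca
LINC01269 (chr14:70698448-70698747, plus strand): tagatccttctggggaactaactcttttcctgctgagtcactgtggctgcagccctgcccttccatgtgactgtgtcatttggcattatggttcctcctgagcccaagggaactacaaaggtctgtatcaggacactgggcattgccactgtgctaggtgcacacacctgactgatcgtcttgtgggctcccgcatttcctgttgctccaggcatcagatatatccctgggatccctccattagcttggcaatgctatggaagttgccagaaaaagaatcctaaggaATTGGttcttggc
LINC00472 (chr6:71420696-71420995, minus strand): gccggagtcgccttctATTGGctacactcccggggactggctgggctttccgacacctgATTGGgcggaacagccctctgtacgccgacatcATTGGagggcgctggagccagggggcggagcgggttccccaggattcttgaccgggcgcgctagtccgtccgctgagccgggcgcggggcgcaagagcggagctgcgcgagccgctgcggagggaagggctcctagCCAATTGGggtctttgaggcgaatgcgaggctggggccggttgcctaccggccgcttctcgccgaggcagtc
The window of LINC01234 holds 1 CCAAT and 2 ATTGG, that of LINC01133 holds 2 CCAAT, and that of LINC00472 holds 1 CCAAT and 4 ATTGG. LINC01269 has 1 ATTGG, which begins 37 bases after the start, and LINC01444 has neither word. In LINC00472 the CCAAT and 1 ATTGG overlap and are marked as 1 run of capitals. The windows shown are examples and do not stand for the called members. Among other named called members, the windows of LINC00993, LINC01116, LINC01277, LINC01424, LINC01468, LINC01550, LINC01583, LINC01667 and LINC01721 hold neither word. Those of LINC00517, LINC01189, LINC01249, LINC01665 and LINC02015 hold at least 1, as does 1 of the 3 windows of LINC00632. Over all genes, 34.6% of the 35116 windows in the table hold at least 1. Windows were found for 229 of the 333 members, or 68.8%, and since this is under 80% a share over the members is void and not given.

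LINC01234, an RNA described as raised in several carcinomas, lies on chromosome 12 of GRCh37 from 114021691 to 114211531, 43012 bp from RBM19. It was at 8.6, 6.91 and 8.93 CPM for Empty, at 0.265, 0.245 and 0.37 across NF-YAl and at 2.53, 2.09 and 2.44 across NF-YAs. The 3 groups did not overlap, with NF-YAl lowest and NF-YAs between. It fell by 4.76 ± 0.25 log2 units in NF-YAl (adjusted p 3.38e-07) and by 1.79 ± 0.19 in NF-YAs (adjusted p 3.03e-05), and the direct difference of the lines was -2.97 ± 0.27 (adjusted p 3.39e-05). RBM19, which acts in ribosome biogenesis, moved the other way in NF-YAs, with a log2FC of 1.01 ± 0.11, and had 0.35 ± 0.10 in NF-YAl.

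LINC01133, known to bind splicing factor SRSF6 in colorectal cancer, lies on chromosome 1 from 159927825 to 159954540 (GRCh37), 3798 bp from SLAMF9. Its levels were 4.61, 5.68 and 4.96 CPM for Empty, 0.636, 0.45 and 0.534 across NF-YAl and 0.215, 0.299 and 0.645 across NF-YAs. Both transduced lines lay below every Empty library and overlapped each other. The log2FC was -3.24 ± 0.31 in NF-YAl and -3.67 ± 0.33 in NF-YAs. SLAMF9, a receptor gene of the SLAM family, fell too, with a log2FC of -2.38 ± 0.30 in NF-YAl and -3.15 ± 0.33 in NF-YAs.

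LINC00520, described in several tumors, was at 4.99, 5.76 and 8.27 CPM for Empty, at 0.371, 0.245 and 0.411 across NF-YAl and at 1.24, 0.597 and 1.48 across NF-YAs. The groups did not overlap. The log2FC was -4.20 ± 0.37 in NF-YAl and -2.51 ± 0.32 in NF-YAs. The direct difference of -1.68 ± 0.42 had an adjusted p of 0.0131 and was not called.

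LINC01444 is on chromosome 18 from 14969000 to 14970467 (GRCh37), inside LINC01443 on the opposite strand and 114334 bp from ANKRD30B, so that reads of the 2 RNAs may be mixed. It was at 10.4, 10.7 and 12.9 CPM for Empty, at 1.7, 1.39 and 1.23 across NF-YAl and at 2.53, 1.79 and 1.75 across NF-YAs, with no overlap between Empty and either line. Its log2FC was -2.98 ± 0.21 in NF-YAl and -2.49 ± 0.20 in NF-YAs. LINC01443 had a log2FC of -1.15 ± 0.29 in NF-YAs, a call that was lost, at up to 0.0397, without any 1 of the Empty or NF-YAs replicates. ANKRD30B, an ankyrin repeat gene, had a log2FC of -1.90 ± 0.21 in NF-YAl and -1.02 ± 0.20 in NF-YAs.

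LINC01721 was the highest of the members that fell in both lines, at 46.4, 35.8 and 60.9 CPM for Empty, 14.3, 21 and 17.7 across NF-YAl and 10.1, 6.87 and 7.37 across NF-YAs. Here NF-YAs was the lowest group, and the groups did not overlap. The log2FC was -1.43 ± 0.20 in NF-YAl and -2.56 ± 0.22 in NF-YAs.

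The next members that fell were near the limit of counting. LINC01269 had 61 counts over Empty and 2 over NF-YAs, a ratio of 24.7 with an exact 95% counting interval of 6.56 to 209, and LINC01559 had 61 and 3, a ratio of 16.5 with an interval of 5.38 to 82.2. The intervals cover counting error only. Neither member could pass the count limit through NF-YAs, so higher counts in another group were a condition of entry. Both ratios describe selected members. LINC00589, LINC01291, LINC01111 and LINC01665 stood at 0.795 to 2.31 CPM for Empty and at 0 to 0.739 CPM for NF-YAl. LINC01291 fell in NF-YAs, with a log2FC of -2.23 ± 0.40, and had an adjusted p of 0.0152 in NF-YAl, where it was not called. LINC00589, LINC01111 and LINC01665 were called in NF-YAl, but LINC00589 lost its call, at up to 0.0154, without Empty replicate B or C and LINC01111, at up to 0.0268, without any 1 of the Empty replicates or NF-YAl replicate B. The call of LINC01559 was lost, at up to 0.0195, without Empty replicate A or C or NF-YAs replicate A or C.

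**Figure D3:**
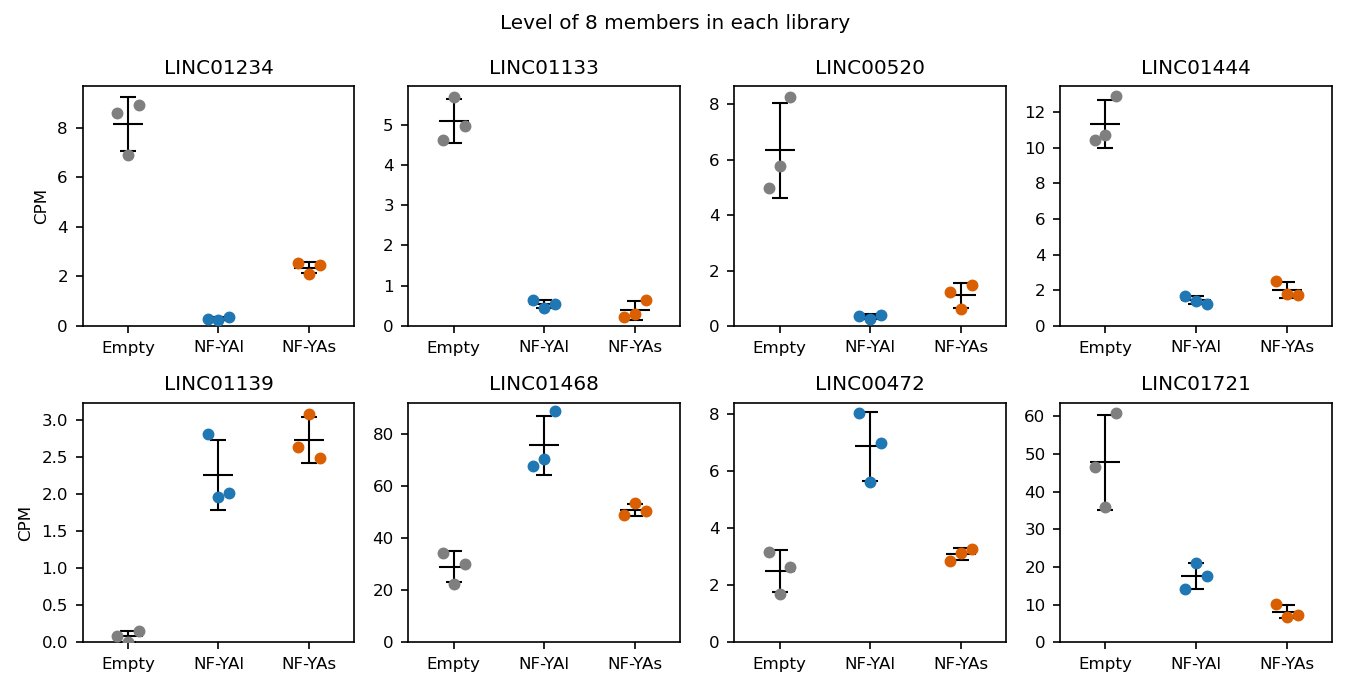
CPM of 8 members in each of the 9 libraries, with points for libraries and black bars for the mean ± SD of 3 libraries, each panel starting at 0. LINC01234, LINC01133, LINC00520 and LINC01444 are lower in every NF-YAl and NF-YAs library than in any Empty library, and LINC01139 and LINC01468 are higher. Absence of overlap was a criterion for naming called members.

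LINC01139, described as a kinase-activating RNA in breast cancer, rose in both lines. It was at 0.0839, 0 and 0.157 CPM for Empty, at 2.81, 1.96 and 2.01 across NF-YAl and at 2.64, 3.08 and 2.49 across NF-YAs. The transduced lines overlapped each other and lay far above Empty, with log2FC of 4.71 ± 0.48 and 4.99 ± 0.48. LINC00645 rose from 0.0397 to 0.157 CPM for Empty to 0.532 to 1.01 across NF-YAl and 0.862 to 1.34 across NF-YAs, and its adjusted p for NF-YAl was 0.0107 without Empty replicate B. LINC01249 had a log2FC of 2.14 ± 0.48 in NF-YAl and 3.58 ± 0.44 in NF-YAs, and the call in NF-YAl was lost, at up to 0.0259, without any 1 of the Empty replicates or NF-YAl replicate B or D. LINC00639 had 1.63 ± 0.28 and 1.60 ± 0.28.

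LINC00993 lies 15551 bp from ANKRD30A, an ankyrin repeat gene also known as a breast antigen. It was at 0.276 to 0.477 CPM for Empty, 1.06 to 2.66 across NF-YAl and 1.19 to 1.51 across NF-YAs, with log2FC of 2.30 ± 0.40 and 1.89 ± 0.41. The call in NF-YAs was lost, at up to 0.0211, without Empty replicate A or C or any 1 of the NF-YAs replicates. ANKRD30A had log2FC of 2.29 ± 0.37 and 1.92 ± 0.37.

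LINC01667 rested on 1 library. Its CPM were 0.545, 0.556 and 0.551 for Empty and 15.5, 3.03 and 0.78 for NF-YAl, so that NF-YAl replicate A stood far above the others. The log2FC in NF-YAl was 3.51 ± 0.85, and without NF-YAl replicate A it was 1.78 ± 0.50 with an adjusted p of 0.0162. The call was also lost, at up to 0.034, without any 1 of the Empty or NF-YAs replicates.

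**Figure D4:**
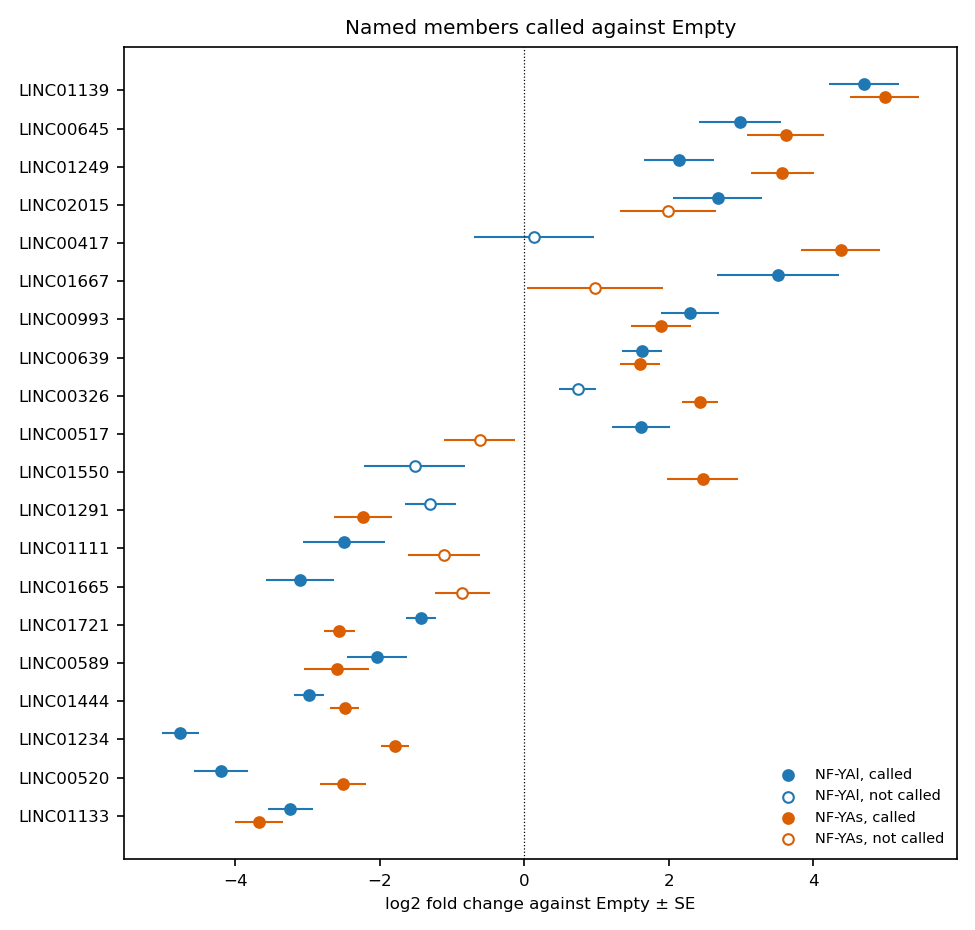
Log2 fold change against Empty ± SE of the members named for the size of a call against Empty, with NF-YAl in blue and NF-YAs in orange, filled where called. Members called against Empty but named for another reason, LINC01468 and LINC00472 among them, are not shown. LINC01139 is at 4.71 and 4.99, LINC01234 at -4.76 and -1.79, and 4 members with 0 to 3 counts in a group are left out.

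The isoform lines were then set against each other. LINC00326, LINC00417, LINC00408, LINC00442 and LINC01550 were higher in NF-YAs. LINC00326 was at 1.59, 1.23 and 1.42 CPM for Empty, 2.33, 1.68 and 3.08 across NF-YAl and 8.99, 6.32 and 7.7 across NF-YAs. The NF-YAs libraries lay above all others, with a direct log2FC of -1.70 ± 0.24 (adjusted p 0.000527). LINC01550 was at 0.21 to 0.708 CPM for Empty, 0 to 0.286 across NF-YAl and 1.67 to 2.79 across NF-YAs, with a direct log2FC of -3.99 ± 0.59. LINC01550 passed the count limit through NF-YAs alone, so its counts there were a condition of entry and these values describe a selected member.

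LINC00472, described as a tumor-suppressive RNA in breast cancer, was higher in NF-YAl. It was at 3.15, 1.71 and 2.64 CPM for Empty, 8.01, 5.6 and 6.98 across NF-YAl and 2.85, 3.13 and 3.27 across NF-YAs. The NF-YAs libraries overlapped Empty, and NF-YAl lay above both. The log2FC was 1.46 ± 0.23 in NF-YAl against Empty and 1.15 ± 0.23 against NF-YAs, where the call was lost, at up to 0.0223, without any 1 of the NF-YAs replicates. OGFRL1, the coding gene on the opposite strand that LINC00472 overlaps, had 0.56 in NF-YAl with an adjusted p of 0.0285.

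LINC00417, LINC00408 and LINC00442 follow each other on chromosome 13 in the RefSeq order of genes counted in these files, interrupted by ANKRD20A9P alone. LINC00408 spans 19479559 to 19509694 and LINC00442 spans 19582399 to 19600942 on the plus strand of GRCh37, the former 238218 bp and the latter 146970 bp from TUBA3C, a tubulin gene. Their windows, shown because these neighbours moved together, were as follows, with the same marking.
LINC00408 (chr13:18905189-18905488, plus strand): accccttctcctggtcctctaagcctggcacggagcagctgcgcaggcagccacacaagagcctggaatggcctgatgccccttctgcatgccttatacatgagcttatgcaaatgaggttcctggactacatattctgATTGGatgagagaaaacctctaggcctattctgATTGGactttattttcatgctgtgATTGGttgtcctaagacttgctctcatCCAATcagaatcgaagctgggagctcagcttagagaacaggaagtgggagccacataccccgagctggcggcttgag
LINC00417 (chr13:18740050-18740349, minus strand): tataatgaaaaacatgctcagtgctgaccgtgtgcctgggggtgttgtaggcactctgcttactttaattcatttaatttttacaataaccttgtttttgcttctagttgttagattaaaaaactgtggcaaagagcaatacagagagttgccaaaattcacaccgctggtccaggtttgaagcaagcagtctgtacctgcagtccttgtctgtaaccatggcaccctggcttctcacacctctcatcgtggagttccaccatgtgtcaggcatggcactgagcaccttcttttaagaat
LINC00442 (chr13:19008009-19008308, plus strand): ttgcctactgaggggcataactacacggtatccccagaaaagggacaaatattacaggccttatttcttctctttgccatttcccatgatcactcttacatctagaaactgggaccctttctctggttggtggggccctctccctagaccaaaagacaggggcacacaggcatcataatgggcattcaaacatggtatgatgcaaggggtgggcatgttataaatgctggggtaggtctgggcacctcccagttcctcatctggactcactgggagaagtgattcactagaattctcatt
LINC00408 holds 1 CCAAT and 3 ATTGG, and LINC00417 and LINC00442 hold neither word.

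These 3 members were close to absent outside NF-YAs. All 3 passed the count limit through NF-YAs alone, so their counts there were a condition of entry. The values below describe selected members. LINC00408 was at 1.08, 1.29 and 1.24 CPM in NF-YAs, at 0 in every Empty library and at 0, 0.123 and 0.0411 in NF-YAl. It had 73 counts over NF-YAs and 0 over Empty, which is at least 30-fold higher against a floor of 3 counts over the group. LINC00442 had 81 counts over NF-YAs, 2 over Empty and 0 over NF-YAl, at least 30.3-fold higher than in NF-YAl, and against Empty a ratio of 49.9 with an interval of 13.4 to 419. LINC00417 was at 2.15, 1.84 and 3.04 CPM in NF-YAs, with a log2FC of 4.38 ± 0.55 against Empty and a direct log2FC of -4.25 ± 0.55.

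The run of raised genes took in 2 genes that are not members. Both were named after their values were seen. ANKRD20A9P, an ankyrin repeat pseudogene, was at 3.69, 2.5 and 3.19 CPM for Empty, 1.86, 1.84 and 2.14 across NF-YAl and 19.9, 15.8 and 18.9 across NF-YAs, with a log2FC of 2.54 ± 0.18 for NF-YAs. FAM230C was at 1.04 to 1.2 CPM for NF-YAs, at 0.123 to 0.205 across NF-YAl and at 0.0394 to 0.0419 for Empty. Past the run, TUBA3C had 0 counts in every library and LOC101928697 was not called, at a log2FC of -0.05 ± 0.47 in NF-YAs. The median log2FC of the 100 placed tested genes nearest to LINC00442 was 0.14 in NF-YAs. Of these loci, 54.5% of the 31-base words of LINC00408 and 96% of those of LINC00442 were unique in GRCh37. Copy number in the lines was not measured.

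**Figure D5:**
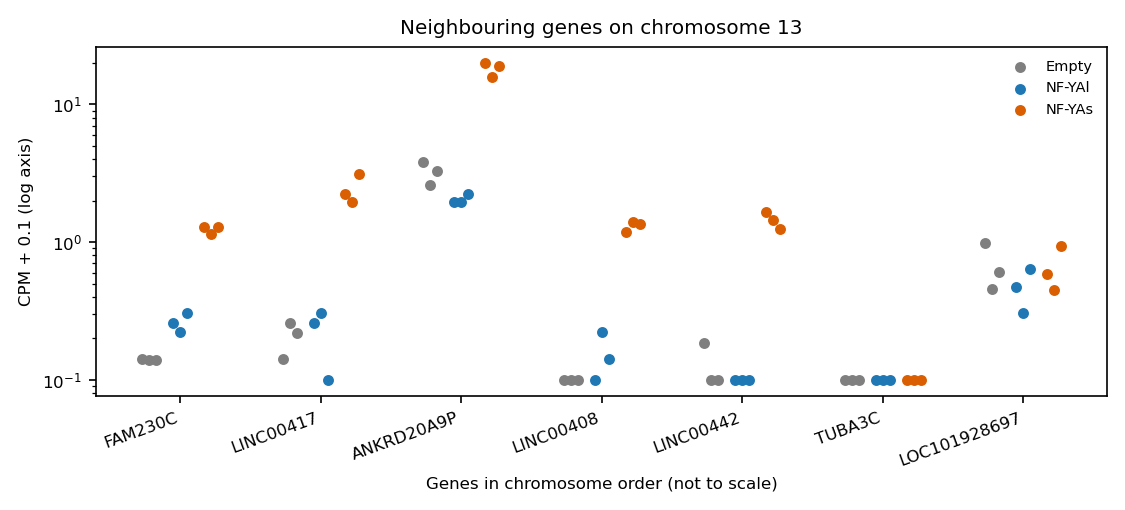
CPM + 0.1 (log axis) of 7 genes in chromosome order, 1 point per library, coloured by group, with the order not to scale. The 5 genes from FAM230C to LINC00442 are higher in every NF-YAs library than in any other library, while TUBA3C is at 0 and LOC101928697 overlaps between groups.

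Nearest coding neighbours were read for 145 non-overlapping members with a tested coding gene within 100 kb. In NF-YAl, 13 of these members were called, and the neighbour was called the same way for 4 and the opposite way for 1. For the 132 members that were not called, 11 had a called neighbour. In NF-YAs, 18 were called, with the neighbour called the same way for 4 and the opposite way for 1, and 12 of the other 127 had a called neighbour. Between the lines, 6 were called, with no neighbour called either way, and 8 of the other 139 had a called neighbour. The same-way pairs were LINC01133 with SLAMF9, LINC00310 with MRPS6 and LINC00993 with ANKRD30A in both lines, LINC00659 with NTSR1 in NF-YAl and LINC01443 with ANKRD30B in NF-YAs. The opposite pairs were LINC01940 with TWIST2 in NF-YAl and LINC01234 with RBM19 in NF-YAs. TWIST2, a mesenchymal transcription factor gene, had 0 counts over Empty, 35 over NF-YAl and 92 over NF-YAs, while LINC01940, 8768 bp away, had a log2FC of -1.42 in NF-YAl. MRPS6, a mitochondrial ribosome gene 14690 bp from LINC00310, had a log2FC of -1.56 ± 0.17 in NF-YAl and -2.12 ± 0.17 in NF-YAs, and LINC00310 had -1.13 ± 0.23 and -1.85 ± 0.24. The NF-YAl call of LINC00310 was lost, at up to 0.0169, without Empty replicate A or C. NTSR1, the neurotensin receptor gene, lies 10209 bp from LINC00659, and had -1.97 ± 0.16 in NF-YAl and -0.02 ± 0.15 in NF-YAs beside -1.83 ± 0.28 and -0.84 ± 0.27 for LINC00659. These neighbours were named after their values were seen, as were ANKRD30B, TWIST2, TRAF5, CHD2 and the members LINC00310, LINC00659, LINC01443 and LINC01940.

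Loci that encode small proteins, 4 members of 10 listed, were called in no comparison, where 1.74 to 5.44% of all genes were called in a direction. LINC00116, which encodes the mitochondrial peptide mitoregulin, was at 8.77, 9.62 and 8.66 CPM for Empty, 3.87, 4.83 and 5.63 across NF-YAl and 7.11, 8.81 and 8.29 across NF-YAs. NF-YAl lay below the others, and the log2FC of -0.91 ± 0.17 (adjusted p 0.00143) was under the fold limit. LINC00998, which encodes the membrane protein SMIM30, had 0.89 ± 0.18 in NF-YAs with an adjusted p of 0.00241. LINC00493, now SMIM26, had -0.20 ± 0.12 and -0.01 ± 0.12.

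Hosts of other RNAs were 2 members of 6 listed, and 1 fell in NF-YAs, as did 3.9% of all genes. LINC00632, from whose locus the circular RNA CDR1as comes, was at 5.05 to 6.77 CPM for Empty and 2.58 to 2.8 across NF-YAs, with a log2FC of -1.07 ± 0.27, a call lost, at up to 0.0449, without any 1 of the Empty or NF-YAs replicates. LINC00461, a host of miR-9, had 1.13 ± 0.34 in NF-YAl with an adjusted p of 0.0239. A further list of 20 described lncRNAs held 12 members. It is not all members described in cancer, and LINC01139 and LINC00472, which rose, are not on it. In NF-YAl 3 fell, LINC00520, LINC01133 and LINC01116, and in NF-YAs 3 fell, LINC00520, LINC01133 and LINC00467. Of all tested genes 3.5 and 3.9% fell in these comparisons, and of all members 5.12 and 7.83%. The list is too short to read these counts as a share of its own. LINC01116 kept its call in only 1 of the 9 fits that leave out 1 library, without NF-YAl replicate D. None of these 12 was called as risen in either line, beside 4.76 and 5.44% of all genes, and their median log2FC was -0.18 in NF-YAl and -0.30 in NF-YAs.

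LINC00467 was at 4.57, 4.29 and 4.25 CPM for Empty, 3.18, 2.82 and 3.86 across NF-YAl and 1.89, 1.94 and 2.07 across NF-YAs. The groups did not overlap, and the log2FC in NF-YAs was -1.15 ± 0.19. TRAF5, its neighbour at 7790 bp and a signalling adaptor, had 0.76 ± 0.12 in NF-YAs and 1.15 ± 0.12 in NF-YAl. LINC00673 had 0.76 ± 0.14 in NF-YAs and a direct log2FC of -0.89 ± 0.14. LINC01578, now CHASERR, an RNA known to restrain its neighbour CHD2, had -0.81 ± 0.16 in NF-YAs, and CHD2, a chromatin remodeller gene, had -0.36. LINC00963, described in the progression of prostate cancer, had -0.47 ± 0.15 in NF-YAl and -0.27 ± 0.15 in NF-YAs.

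The counts of calls changed when single libraries were left out, and shares over all genes in these fits are not given. Members that rose in NF-YAl numbered 5 without Empty replicate B and 6 without Empty replicate A or C, and members that fell numbered 9 without Empty replicate C. Members that fell in NF-YAs numbered 16 without Empty replicate A or C, 17 without NF-YAs replicate A and 15 without NF-YAs replicate B or C. Members higher in NF-YAl than in NF-YAs numbered 0 without NF-YAs replicate B or C, 3 without NF-YAl replicate B and 9 without NF-YAl replicate D, and members lower numbered 7 without NF-YAs replicate C. Calls that held in all 9 fits leaving out 1 library were 5 of 11 rises and 9 of 17 falls in NF-YAl, 11 of 15 and 13 of 26 in NF-YAs, and 0 of 5 and 6 of 13 between the lines. Those of LINC01234, LINC01133, LINC00520, LINC01444 and LINC01139 in both lines, and of LINC01468 in NF-YAl, were among them.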

How the data were processed

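The authors made stranded libraries from total RNA, aligned reads to the human transcriptome (hg19) by RSEM with Bowtie2, and deposited expected counts and TPM for each gene, and expected counts and percent of the gene's TPM for each transcript. The deposited lengths were not tested. Members were found by symbol and expected count. The members, gene lists and tests were chosen with earlier results of these data known.

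Rounded expected counts were tested with edgeR 4.0.16 in R 4.3.3 (filterByExpr, TMM, 9 libraries in 1 quasi-likelihood fit, Benjamini-Hochberg over 17108 genes) and called at an adjusted p under 0.01 and |log2FC| above 1. The alternative tool was DESeq2 1.42.0. SEs are |log2FC| over the square root of F. The fits were tested on simulated data, with changes larger than the fold limit placed in genes of higher counts. That test does not cover members with low counts or changes near the limit. Named members were up to 8 called members per comparison and direction with the largest |log2FC|, whose libraries did not overlap and whose higher group averaged 0.5 CPM or more, the 10 with the highest TPM, and those on the role lists. Positions came from GENCODE on GRCh37, and repeat shares from 31-base words of that genome. Start-site windows and gene order came from RefSeq on GRCh38.p14. 1 marker gene is not reported here.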

Additional observations from a re-analysis of the deposited data

Results flagged for a closer look

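For 18 members the effects of the 2 isoforms against Empty differed by the direct edgeR test of NF-YAl against NF-YAs, and the values are log2FC of that test. Of all tested genes, 1.74% were called higher and 2.86% lower in NF-YAl by it. Among the 235 members that passed the count limit in all 3 groups, 3 were called higher and 4 lower. The others, LINC00408, LINC00417 and LINC00442 among them, thus entered without passing in every group. Lower in NF-YAl were LINC01550 at -3.99, LINC01583 at -3.26, LINC01234 at -2.97, LINC01189 at -2.41, LINC01665 at -2.24, LINC01812 at -1.81, LINC00326 at -1.70, LINC01547 at -1.32, LINC01605 at -1.18 and LINC01002 at -1.12. The neighbours on chromosome 13 were also lower, LINC00417 at -4.25 and LINC00408 at -4.24, and LINC00442, with 0 counts over NF-YAl, was higher in NF-YAs by at least 30.3-fold. Higher in NF-YAl were LINC00517 at 2.23, LINC01277 at 1.98, LINC01424 at 1.3, LINC00472 at 1.15 and LINC01721 at 1.13. LINC01002 is among the members with a high share of repeated sequence, at 53.6%, and only 2.73% of the 31-base words of LINC01189 were unique in GRCh37. None of the 5 higher in NF-YAl, and 6 of the 13 lower, kept the call in all 9 fits that leave out 1 library.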

How the results depend on the processing

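Counts are given as rises and falls, in the order NF-YAl vs Empty, NF-YAs vs Empty, NF-YAl vs NF-YAs. They were 11 and 17, 15 and 26, 5 and 13. With at least 10 counts in every library, which leaves fewer members in the test, they were 5 and 11, 5 and 17, 3 and 4. With only the groups compared in the fit they were 7 and 13, 20 and 32, 3 and 8. At an adjusted p under 0.05 they were 16 and 23, 23 and 34, 13 and 20, and with no fold limit 18 and 23, 23 and 31, 9 and 18. With members taken by 50 counts they were 3 and 12, 4 and 17, 2 and 5. DESeq2 gave 11 and 18, 13 and 25, 7 and 16. Leaving out 1 library gave 5 to 11 and 9 to 23, 11 to 19 and 15 to 28, 0 to 9 and 7 to 15. The replicate block gave 12 and 16, 18 and 30, 11 and 12, but the labels do not say whether same-letter libraries share an experiment. After each group's mean log CPM was removed, same-letter libraries of different groups correlated at -0.0652 to 0.253, with a mean of 0.0862. Pairs with different letters correlated at -0.2202 to 0.1633, with a mean of -0.0299. Shares over all genes are given for the main setting alone, so a move of the members cannot be told apart from one of all genes. The cause of these moves was not tested.

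No called log2FC of a named member turned sign. Small ones did, under the replicate block for LINC00673 (0.0255) and LINC00998 (-0.0251) in NF-YAl vs Empty, LINC00461 (0.0051) and LINC02043 (0.0169) in NF-YAs vs Empty, and LINC00261 (-0.0229) and LINC02108 (0.0641) between the lines, and without a filter for LINC02043 in NF-YAs vs Empty (0.0000). With 1 library left out, log2FC ranged, in NF-YAl vs Empty, over LINC00261 -0.0957 to 0.2357, LINC00417 -0.5701 to 0.7500, LINC00504 -0.1074 to 0.4038, LINC00506 -0.1109 to 0.3637, LINC00958 -0.1779 to 0.3690, LINC00998 -0.0059 to 0.4465, LINC01873 -0.1023 to 0.2687, LINC02043 -0.1561 to 0.2548, LINC02108 -0.1456 to 0.3396. In NF-YAs vs Empty they ranged over LINC00261 -0.0221 to 0.0992, LINC00461 -0.3231 to 0.3185, LINC00493 -0.0956 to 0.0465, LINC00506 -0.2742 to 0.0857, LINC00665 -0.2327 to 0.2045, LINC00961 -0.3389 to 0.4918, LINC01116 -0.0685 to 0.0963, LINC01873 -0.1350 to 0.1327, LINC02043 -0.1074 to 0.1760. Between the lines they ranged over LINC00261 -0.1214 to 0.2091, LINC00458 -0.0783 to 0.3399, LINC00639 -0.2259 to 0.2306, LINC00649 -0.0459 to 0.1904, LINC00662 -0.0828 to 0.2482, LINC00961 -0.2370 to 0.5935, LINC00993 -0.0609 to 0.6407, LINC01873 -0.0723 to 0.3003, LINC02043 -0.1523 to 0.2429, LINC02108 -0.3359 to 0.1507. Neighbours called the same way within 10 kb numbered 1, 1 and 0. The planned shorter start-site window was not run, since the share over members is void. Depth limits members below about 1 CPM, where a group held few counts.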
